A study of Mus musculus with 4 samples.

Results

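The olfactory receptor gene arrays on mouse chromosomes 2, 7 and 9 were examined as 3 windows of GRCm38: chr2:85200001-90400000, chr7:102400001-104900000 and chr9:37700001-40200000. The windows were set by position, and every pair of 8 kb bins with both bins inside 1 window was taken, with 1 Mb on each side as the flank. They held 85246 of the 23095428 bin pairs listed for embryonic stem cells (ESCs) and 62582 of the 21005697 listed for motor neurons (MNs). The chromosome 2 window spanned 650 bins and held 286 olfactory receptor genes, from Olfr987 to Olfr1273-ps. The chromosome 7 window spanned 312 bins with 130 receptor genes, from Olfr543 to Olfr666, and the chromosome 9 window 312 bins with 123 receptor genes, from Olfr160 to Olfr986. The flanks held no whole receptor gene apart from the right flank on chromosome 7, in which 26 more receptor genes continued the same run of genes. On chromosome 2, Olfr1274-ps crossed the right end of the window.

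Olfactory receptors are the G protein-coupled receptors with which sensory neurons of the nose detect odorants. Their genes lie in long tandem arrays, and each mature sensory neuron is known to express one receptor allele while the others are kept in heterochromatin, with arrays of different chromosomes gathering inside the nucleus. Neither ESCs nor spinal MNs are cells in which these genes are normally used, so the arrays serve here as long stretches of silent, gene-dense DNA; contact data hold no expression, and silence was not measured.

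Micro-C, in which chromatin is crosslinked, cut with micrococcal nuclease and ligated, was compared between wild type (WT) and PATZ1 KO cells of the E14 mouse ESC line, and between WT and PATZ1 KO MNs differentiated from them with retinoic acid and a smoothened agonist. PATZ1 is a zinc finger protein with a POZ domain, and the KO lines were made with CRISPR/Cas9; which line entered Micro-C was not given in the labels. Each group had 1 library, so no difference has a replicate check, no test was run, and the 95% intervals given cover counting error only. The intervals also treat contacts as independent molecules, which PCR reads without molecular identifiers may not be. The WT and PATZ1 KO libraries held 105063488 and 97197554 contacts between different bins in ESCs, and 69142450 and 71238513 in MNs. Where 4 values follow each other, they stand in this order of the libraries. The column headers name no sample: the first column of each list was read as WT and the second as PATZ1 KO, after the order in which the submitters name the comparison. Under that reading, the bin that holds the start of Patz1 had fewer contacts in PATZ1 KO in both states, 283 against 404 in ESCs (log2 -0.40 after scaling to library totals) and 163 against 263 in MNs (-0.73). No neighbouring or matched bins were set beside this bin, so it does not check the reading, and every direction below rests on that reading. A pair is listed only where both libraries of a cell state hold at least 1 contact. Beyond 1 Mb, 6.62% of the possible pairs of the chromosome 2 array were listed in ESCs, so sums of contacts at long distance exaggerate both excess and deficit, and the WT and PATZ1 KO values of 1 state are not independent there.

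The arrays shared a base composition that the windows were not chosen for. GC content was 37.2% on chromosome 2, 39.6% on chromosome 7 and 37.7% on chromosome 9, against 43.9%, 43.6% and 44.5% in their flanks and 41.8% over all bins. Repeats made up 47.5%, 42.7% and 44.1% of their bases, against 34.3% over all bins. Motifs of CTCF, the zinc finger protein that anchors most loops and domain boundaries, were thin in them. A strict 12-base CTCF core consensus, searched on both strands, matched 7 times on chromosome 2, 10 times on chromosome 7 and once on chromosome 9, which is 1.35, 4.01 and 0.40 matches per Mb against 10.5, 8 and 12.5 in the flanks and 4.97 over all bins. A looser form of the same core (CC, any 3 bases, AG, any 2 bases, GGC) was present in 32.5%, 43.3% and 30.4% of array bins and in 52.2% of all bins. GGGGAGGG, a G-rich core of the kind bound by PATZ1 and MAZ, was present on either strand in 46.6%, 57.1% and 42.6% of array bins against 58.1% of all bins. A match is a description of the letters and not a bound site.

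Of these matches, the one nearest to a boundary site described below is shown for each array, with 1 that recurs in the Trim genes, 5′ to 3′ on the strand of the match, from GRCm38, with the match in capitals. The chromosome 2 match, chr2:88356452-88356511 (plus strand, 9984 bases from Olfr1177-ps), lay in the boundary site whose insulation score was the lowest of that array's sites in all 4 libraries. The first chromosome 7 match, chr7:103793070-103793129 (plus strand, 1273 bases from Olfr67), lay beside the boundary next to the globin genes. The second chromosome 7 match is in Trim5, chr7:104279361-104279420 (plus strand), and the same 60 bases recurred in Trim12a and Trim12c. The chromosome 9 match, chr9:39509150-39509209 (plus strand, 1049 bases from Olfr957), was the only one of its array.
Chromosome 2, beside Olfr1177-ps: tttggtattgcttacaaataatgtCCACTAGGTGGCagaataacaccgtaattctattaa
Chromosome 7, beside Olfr67: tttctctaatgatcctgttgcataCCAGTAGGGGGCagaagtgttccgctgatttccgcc
Chromosome 7, in Trim5, Trim12a and Trim12c: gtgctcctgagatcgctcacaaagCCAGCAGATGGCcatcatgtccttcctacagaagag
Chromosome 9, beside Olfr957: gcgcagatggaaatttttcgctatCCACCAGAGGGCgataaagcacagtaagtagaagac
Of the 10 matches on chromosome 7, 6 were in Trim genes. Many bins of the Trim cluster carried no insulation score.

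To ask whether a silent array folds like the rest of its chromosome, contacts inside each array were set against the mean of the same chromosome at the same distance (log2 observed over expected, 0 meaning the chromosome mean). Beyond 1 Mb all 3 arrays held more contacts than their chromosomes in all 4 libraries. On chromosome 2, WT ESCs had 10276 contacts beyond 1 Mb where 5181 were expected, a log2 value of 0.99 (95% interval 0.96 to 1.02). The other libraries had 0.97, 0.58 and 0.66. On chromosome 7 the excess was larger, 1.60 (1.55 to 1.66), 1.64, 1.44 and 1.55. On chromosome 9 it was 1.04, 1.00, 0.48 and 0.58. Summed over all distances beyond 1 Mb, both ESC libraries were above both MN libraries on all 3 arrays, most narrowly on chromosome 7. At the longest distances this turned on chromosomes 2 and 7. From 3720 to 4792 kb on chromosome 2, WT and PATZ1 KO were at 0.93 and 0.97 in ESCs and 2.93 and 2.94 in MNs. From 1728 to 2216 kb on chromosome 7 they were at 1.57 and 1.67 in ESCs and 1.68 and 1.73 in MNs. The order of the sums also depended on bin coverage: with contacts divided by the coverage of both bins, the 4 values became 0.83, 0.98, 1.63 and 1.12 on chromosome 2, 1.33, 1.40, 2.02 and 1.75 on chromosome 7, and 1.00, 1.15, 1.37 and 0.86 on chromosome 9.

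The excess was high but not unique among windows of the same length elsewhere in the genome. The chromosome 2 array in WT ESCs stood above 443 of 458 windows of 650 bins, whose median was -0.08, and the chromosome 7 array above 945 of 963 windows of 312 bins, whose median was -0.28. The chromosome 9 array stood above 865 of those 963. In WT MNs the arrays stood above 367 of 458, 929 of 963 and 709 of 963 windows. Because long-range pairs are listed only when both libraries hold one, the same quantity was also estimated from the share of possible pairs listed, under the assumption of Poisson counts. It was then smaller, 0.53, 0.87 and 0.63 in ESCs and 0.50, 0.84 and 0.40 in MNs for chromosomes 2, 7 and 9, and above 0 in all of them.

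At shorter distances the 2 cell states and the 2 MN libraries differed. Between 200 and 1000 kb the ESC arrays were above their chromosomes, with 0.37 and 0.31 in WT and PATZ1 KO on chromosome 2, 0.51 and 0.50 on chromosome 7, and 0.34 and 0.31 on chromosome 9. Over the pairs listed in both states this excess was lost on 2 arrays, with -0.087 and -0.16 on chromosome 2 and 0.028 and -0.019 on chromosome 9, and was 0.28 and 0.27 on chromosome 7. In MNs they were below them, with -0.57 and -0.37, -0.21 and -0.04, and -0.33 and -0.11. Between 8 and 40 kb, WT MNs stood apart from the other 3 libraries, at -0.48, -0.33 and -0.39, while the other 3 libraries lay between -0.05 and 0.16. The chromosome 2 value in WT MNs was below all 458 windows of its length. Coverage moved with this: the median array bin held 0.721, 0.762 and 0.741 times the chromosome's median contacts in WT MNs, against 0.948 to 1.14 times in the other 3 libraries. With contacts divided by the coverage of both bins, the WT MN values between 200 and 1000 kb turned to 0.50, 0.68 and 0.65, while those of PATZ1 KO MNs were -0.09, 0.20 and 0.09. From the share of pairs listed, which gives 1 value per state, MNs were at -0.18, 0.019 and 0.0035 between 200 and 1000 kb. The direction of the WT MN values under 1 Mb therefore depends on the processing. Bin coverage in the arrays is made up largely of the arrays' own contacts. Dividing by that of both bins can by itself turn a deficit into an excess, so this correction cannot decide the direction. In PATZ1 KO MNs the correction turned the values of chromosomes 7 and 9 between 40 and 1000 kb above 0, by as little as 0.0018 on chromosome 7, and left those of chromosome 2 below 0; between 8 and 40 kb all 3 arrays stayed above 0. The excess beyond 1 Mb was above 0 either way in all 12 values.

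**Figure D1:**
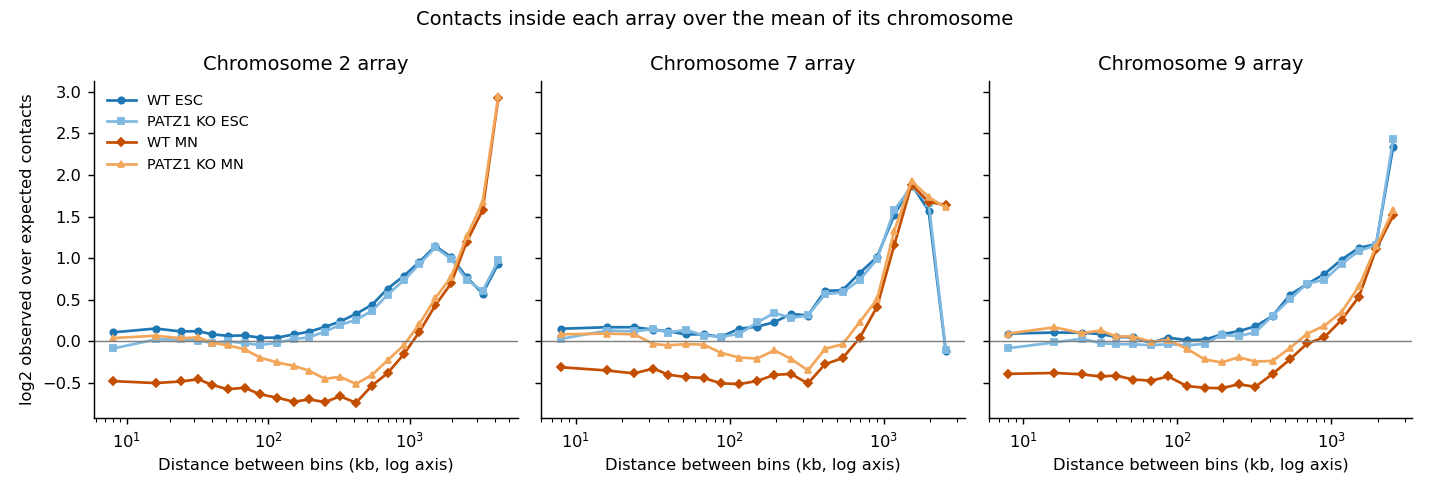
Log2 observed over expected contacts (y axis) inside the arrays of chromosomes 2, 7 and 9 against the distance between bins in kb (x axis, log scale); each line is 1 library and 0 is the mean of the chromosome at that distance. Just beyond 1 Mb all 4 lines are above 0, WT MN runs below the other 3 libraries at short distance, and the ESC lines turn down at longer distances on chromosomes 2 and 7, on chromosome 7 to -0.12 and -0.10 at the last point, which rests on 8 contacts in each. On chromosome 2 the MN lines rise beyond 1 Mb, to 2.93 in WT and 2.94 in PATZ1 KO at the last point.

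Beyond 200 kb, most edges of the arrays had fewer contacts with the flank than the chromosome has at the same distance. Between 200 and 1000 kb, contacts from the chromosome 2 array to its right flank were at -0.98 in WT ESCs (1301 contacts, 95% interval -1.06 to -0.90) and -0.96 in PATZ1 KO ESCs, and at -2.18 (415 contacts, -2.32 to -2.04) and -2.12 in WT and PATZ1 KO MNs. To the left flank they were at -0.53, -0.47, -0.72 and -0.69. The chromosome 7 array was set off on its left, where the window begins within Stim1 and Rrm1, a subunit of ribonucleotide reductase, lies just before Olfr543: contacts across it were at -1.18, -1.25, -1.35 and -1.31. On its right, where receptor genes run on into the flank, they were at 0.29 and 0.26 in ESCs and -0.61 and -0.51 in MNs. On chromosome 9 the values were -0.61, -0.67, -0.76 and -0.73 on the left and -0.83, -0.88, -1.22 and -1.20 on the right.

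Across the 5 edges that end in a flank without a whole receptor gene, all 4 libraries were below 0, and they were so after the coverage correction too, between -1.48 and -0.42. At each of these edges both MN libraries were lower than both ESC libraries, and with the correction this held at 3 of the 5. The right edge of chromosome 7 was the exception, and there the WT MN value turned to 0.33 with the correction. Low contact at this distance was not particular to the edges, since inside the flanks it ran from -1.17 to 0.40. On chromosome 2 in ESCs the flanks were themselves at -0.85 and -0.80 on the left and -1.10 and -1.17 on the right, lower than the contacts across the edge beside them. Between 40 and 200 kb the left edges of chromosomes 2 and 7 were above 0, at 0.57, 0.74, 0.56 and 0.40 and at 0.31, 0.21, 0.29 and 0.48.

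**Figure D2:**
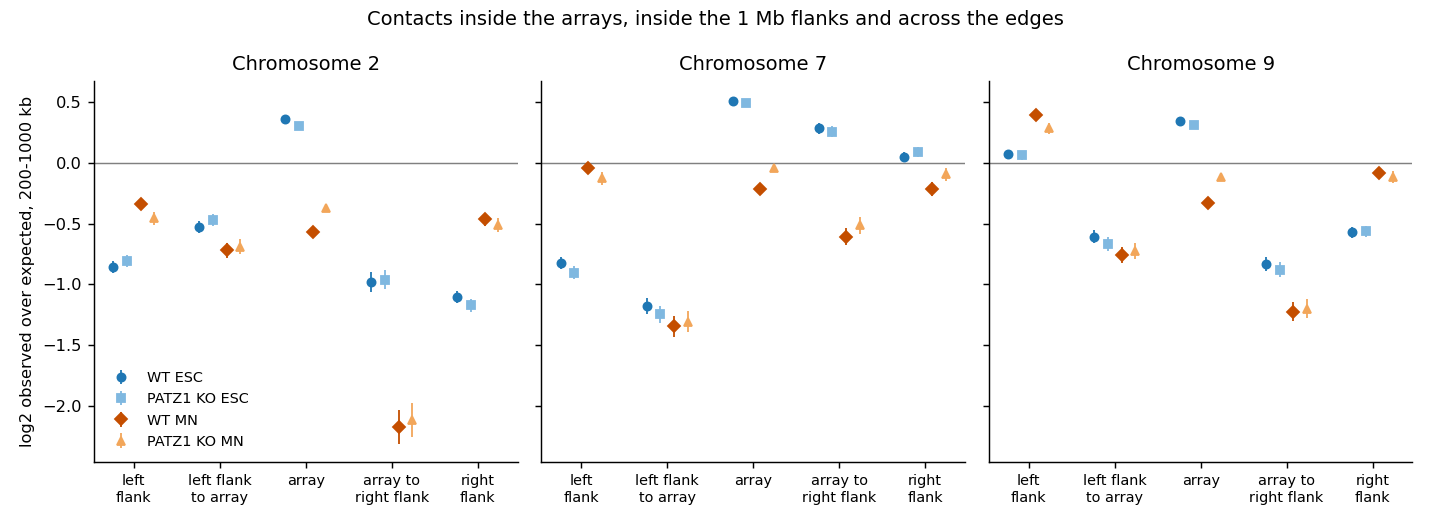
Log2 observed over expected contacts between 200 and 1000 kb (y axis) inside the left flank, from left flank to array, inside the array, from array to right flank and inside the right flank, for chromosomes 2, 7 and 9; points are the 4 libraries and bars are 95% counting intervals, often smaller than the point. Contacts across 5 of the 6 edges lie below 0 in all 4 libraries, the lowest being array to right flank on chromosome 2 in MNs; the right flank on chromosome 7 itself holds receptor genes.

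Inside the arrays, the insulation score was used to look for domains. The score is the log2 of the mean contact across a bin in a square of about 250 kb, relative to the chromosome mean, so that a low value marks a site few contacts cross. The arrays were flatter than their chromosomes: the SD of the score over bins was 0.35, 0.35, 0.42 and 0.39 on chromosome 2, against 0.49 to 0.54 for the whole chromosome. It was 0.32 to 0.39 on chromosome 7 against 0.51 to 0.59, and 0.27 to 0.29 on chromosome 9 against 0.49 to 0.54. Shorter stretches vary less than a chromosome, and among windows of equal length the WT ESC arrays were above 124 of 458, 268 of 963 and 167 of 963 windows, in the lower part but not at its end. PATZ1 KO ESCs were above 104, 279 and 119 of these numbers of windows. MNs lay nearer to the low end, above 87, 129 and 86 in WT and 51, 188 and 75 in PATZ1 KO. The number of boundaries, local minima of at least 0.2 in prominence, was 8, 4 and 5 in WT ESCs for the 3 arrays, or 1.64, 1.85 and 2.00 per Mb, against 2.05 per Mb over all bins. Over all 4 libraries it ran from 1.44 per Mb, the 7 of chromosome 2 in PATZ1 KO ESCs (fewer than in 397 of 458 windows), to 3.24 per Mb, the 7 of chromosome 7 in WT MNs (more than in 812 of 963). That upper value rests on the setting, since a prominence of at least 0.4 left 1 boundary there, and so did a square of about 500 kb.

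Minima of the 4 libraries within 64 kb of each other were joined into 27 sites, of which 11 were found in all 4 libraries. In chromosome 2 these were at chr2:85672001-85696000 over Olfr1006 and Olfr1008, chr2:86456001-86496000 over Olfr1066 and Olfr228, chr2:88288001-88360000 over Olfr1176, and chr2:89248001-89264000 at Olfr1228. The first had prominences of 1.25, 1.15, 0.88 and 0.93, and the third 0.93, 0.96, 1.01 and 1.09. On chromosome 7 the sharpest was the left edge, chr7:102480001-102504000 at Olfr543, Olfr544 and Olfr545, with 1.26, 1.17, 1.33 and 1.71; inside the array chr7:103232001-103280000, at Olfr595-ps1 and the deubiquitinase gene Usp17ld, had 0.49, 0.51, 0.26 and 0.31. On chromosome 9 both edges were found in all 4 libraries, the left at Tbrg1 and Panx3 with 1.06, 0.99, 0.80 and 0.90 and the right at Olfr986 with 0.78, 0.81, 0.89 and 0.98. Inside that array, sites at Olfr881, at Olfr930 and at Olfr954 were found in all 4 libraries, with prominences from 0.22 to 0.69.

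A strict CTCF consensus match lay within 1 bin of 2 of the 27 sites, and the looser core within 1 bin of 26; no share was computed for other stretches of the same length, so nothing is read from either count. The 2 were the site over Olfr1176 on chromosome 2 and the site next to Olfr67 on chromosome 7, whose sequences are printed above. Stated as a description of the same contacts that placed the sites, pairs 40 to 200 kb apart that stayed inside 1 segment of the chromosome 2 array exceeded those that crossed a 4-library site by 0.59, 0.53, 0.59 and 0.55 in log2 observed over expected. On chromosome 9 the difference was 0.38, 0.35, 0.47 and 0.53, and on chromosome 7, with 1 inner site, 0.27, 0.42, 0.14 and 0.16. Between 200 and 1000 kb it was 0.32 to 0.48 on chromosome 2 and 0.38 to 0.49 on chromosome 9. On chromosome 7 it ran the other way, -0.65 to -0.43. Beyond 1 Mb, pairs that crossed sites were the higher ones on chromosome 2 too, with differences of -0.39, -0.39, -0.59 and -0.59, and on chromosome 7 the differences ran from -2.61 to -2.30.

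Not all sites were shared between the states: a site at Olfr1121 and Olfr1122 on chromosome 2 was found in ESCs only, with prominences of 0.73 and 0.68. Shallower sites were found in both MN libraries and in neither ESC library, at 0.28 and 0.21 near the left end of the chromosome 2 array (chr2:85248001-85256000, no receptor gene), 0.21 and 0.23 at Olfr140 on chromosome 2, 0.21 and 0.23 at Olfr634-ps1 on chromosome 7, and 0.26 and 0.39 at Trim6 on chromosome 7.

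The profile followed nearly the same course in WT and PATZ1 KO. Over the 580 scored bins of the chromosome 2 array, Pearson's r of the score was 0.98 between the ESC libraries and 0.97 between the MN libraries, and 0.72 between WT ESCs and WT MNs. On chromosome 7 (231 bins) the 3 values were 0.98, 0.92 and 0.87, and on chromosome 9 (293 bins) 0.98, 0.95 and 0.87, against 0.97, 0.91 and 0.67 over all 293621 bins. Neighbouring bins share contacts, and the 2 libraries of a state share the list of pairs, so these are descriptions and no p is given. Pairs 100 to 2000 kb apart with a mean of at least 20 contacts and at least 4 times the expected contact numbered 0 in each array in both states, against 1782 in ESCs (0.744 per covered Mb) and 477 in MNs (0.199 per Mb) over the genome. At the MN share, arrays of 5.2, 2.5 and 2.5 Mb would hold few or none, so 0 in MNs is not read as a trait of the arrays. The floor of 20 contacts also set the limit there: at 104 to 128 kb on chromosome 2, WT MNs had an expected contact of 2.81 per pair.

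The chromosome 7 array is interrupted by other genes, which allowed receptor blocks to be compared across them. The beta-globin genes Hbb-bt, Hbb-bs, Hbb-bh2, Hbb-bh1 and Hbb-y, which encode adult and embryonic globin chains, occupy 40.7 kb after 91 receptor genes. A cluster of Trim genes, a family with antiviral members, occupies 289 kb after 23 more, and 16 receptor genes follow it. Over the globin genes, contacts between the receptor block before them and the block between globin and Trim genes were at 0.65 in WT ESCs (4591 contacts, 95% interval 0.61 to 0.69), and at 0.38 (WT) and 0.54 (PATZ1 KO) in MNs. Between the first and the last receptor block, across both interruptions, they were at 0.27 in WT ESCs (442 contacts, 0.13 to 0.40), and at 0.42 (WT) and 0.49 (PATZ1 KO) in MNs. Contacts from the first block to the Trim cluster, which lies nearer to it, were lower, at -0.21 in WT ESCs (386 contacts, -0.36 to -0.07) and 0.02 in PATZ1 KO MNs (422 contacts, -0.12 to 0.16). They were at -0.20 in PATZ1 KO ESCs and -0.09 in WT MNs. The receptor blocks just before and after the Trim cluster met it at 0.33 and 0.26 in WT ESCs and 0.35 and 0.30 in PATZ1 KO ESCs. In MNs these values were -0.40 and -0.32 (WT) and -0.32 and -0.16 (PATZ1 KO). Within itself the Trim cluster was at -0.18 in WT ESCs and -0.51 in WT MNs. The globin genes met the first receptor block at 0.48 in WT ESCs and the block after them at -0.01, and the minimum that WT ESCs showed at Hbb-bs had a prominence of 0.40.

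The effect of PATZ1 loss was asked by the ratio of PATZ1 KO to WT contacts inside each array, each scaled to its library's total. In ESCs the WT chromosome 2 array had 230081 contacts and that of PATZ1 KO 194615, a scaled log2 ratio of -0.13 (95% interval -0.14 to -0.12). The chromosome 7 array had 82666 and 74857 (-0.03) and the chromosome 9 array 95392 and 81905 (-0.11). In MNs the order was the opposite, with 94996 in WT and 125290 in PATZ1 KO on chromosome 2 (0.36, 0.34 to 0.37), 37416 and 44169 on chromosome 7 (0.20) and 43956 and 56149 on chromosome 9 (0.31). The MN difference was largest between 8 and 40 kb, at 0.50, 0.28 and 0.42, and smallest beyond 1 Mb, at 0.09, 0.06 and 0.08, where the rule of listing leaves little room for a difference: the 9087 listed pairs of the chromosome 2 array in MNs held 10896 contacts in the WT library and 11978 in the other. The ESC difference was likewise one of short distances, at -0.21, -0.093 and -0.17 between 8 and 40 kb, and beyond 1 Mb it was above 0, at 0.061 (0.021 to 0.10), 0.14 (0.060 to 0.22) and 0.041 (-0.047 to 0.13). The states thus had opposite signs on all 3 arrays under 200 kb, and both were above 0 beyond 1 Mb. Between 40 and 200 kb the ESC values were -0.13, -0.0083 (-0.036 to 0.020) and -0.11, and those of MNs 0.37, 0.18 and 0.30. The MN intervals beyond 1 Mb included 0 on chromosomes 7 (-0.011 to 0.14) and 9 (-0.0085 to 0.17). The 1 Mb flanks were below 0 in MNs, unlike the arrays: the left and right flanks were at -0.12 and -0.20 on chromosome 2, -0.24 and -0.029 (-0.059 to 0.0013) on chromosome 7, and -0.21 and -0.25 on chromosome 9. In ESCs the flanks ran from -0.077 to 0.020, and the left flank of chromosome 7, at -0.059, was lower than its array.

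The MN ratio followed base composition over the whole genome. Across 299386 covered bins, the log2 PATZ1 KO over WT coverage had a Pearson correlation with GC content of -0.82 in MNs and 0.16 in ESCs; neighbouring bins and all bins of a library share its preparation, so no p is given. Set against pairs of the same GC content and distance class elsewhere, the MN ratio of the arrays was 0.016, 0.026 and 0.0044 for chromosomes 2, 7 and 9, and the ESC ratio -0.065, -0.012 and -0.056. The MN values came close to 0, while part of the ESC values of chromosomes 2 and 9 was left. By bin coverage instead of pairs, the median array bin differed from bins of the same GC content by 0.086, 0.062 and 0.057 in MNs and by -0.046, 0.0040 and -0.043 in ESCs. Among windows of equal length regardless of GC, the MN ratios stood above 433 of 458, 730 of 963 and 843 of 963, and the ESC ratios below 452 of 458, 538 of 963 and 877 of 963.

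Single bin pairs pointed the same way. Of 3071 array pairs with a mean of at least 10 contacts in MNs, 426 (13.9%) were at least 2-fold higher in PATZ1 KO, where 5.75% of all such pairs of the genome were, and 22 (0.716%) were at least 2-fold lower, against 5.24%. In ESCs, 113 of 5643 array pairs (2.00%) were at least 2-fold higher, against 3.53%, and 314 (5.56%) were at least 2-fold lower, against 3.89%. The MN share of higher pairs was 17.0% on chromosome 2, 9.87% on chromosome 7 and 10.6% on chromosome 9, the order of their AT content. The part of the genome-wide relation with GC content in these pair counts was not tested.

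**Figure D3:**
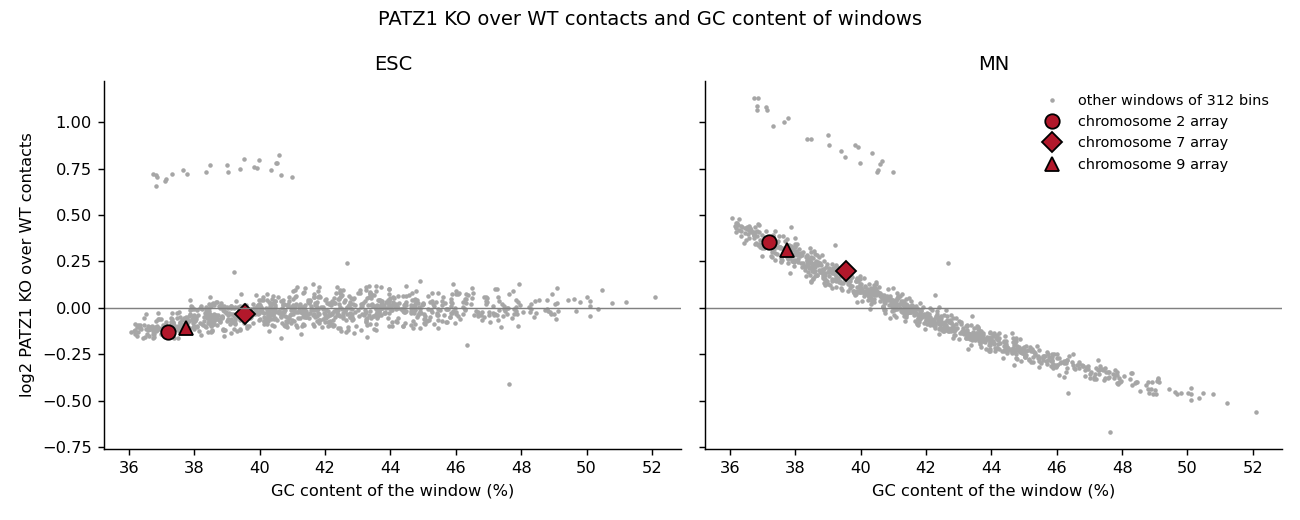
Log2 PATZ1 KO over WT contacts (y axis) against GC content in percent (x axis) for windows of 312 bins over the genome (grey) and the 3 arrays (red), in ESCs and MNs. In MNs the windows fall along a line of decreasing ratio with GC content and the arrays lie in it at 0.36, 0.20 and 0.31; the separate grey group near 0.74 in ESCs is 24 of the 55 windows of the X chromosome.

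Differentiation was compared within each genotype by the log2 observed over expected of MNs minus that of ESCs. Between 200 and 1000 kb the difference in WT was -0.93 on chromosome 2, -0.73 on chromosome 7 and -0.67 on chromosome 9, and in PATZ1 KO -0.67, -0.53 and -0.42. The chromosome 2 values were below all 458 windows in WT and below 456 of 458 in PATZ1 KO; the chromosome 7 values were below 939 and 940 of 963 and the chromosome 9 values below 933 and 917. Between 8 and 40 kb the 2 genotypes parted, at -0.60, -0.49 and -0.49 in WT and 0.08, -0.01 and 0.16 in PATZ1 KO. The MN ratio of PATZ1 KO to WT was also largest at this distance. Over all distances that ratio was 0.016, 0.026 and 0.0044 against pairs of the same GC content and distance class. The difference between MNs and ESCs was not corrected for GC content, so the parting is not read as an effect of genotype. Corrected for bin coverage, the difference between 200 and 1000 kb turned to 0.39, 0.34 and 0.39 in WT and was -0.34, -0.21 and -0.32 in PATZ1 KO. The direction in WT therefore rests on the treatment of coverage in the WT MN library. The correction can by itself turn a deficit into an excess, as said above, so it cannot decide that direction. In PATZ1 KO the difference was below 0 under all settings run. Over pairs listed in both states the differences were smaller, at -0.45, -0.40 and -0.34 in WT and -0.17, -0.20 and -0.050 in PATZ1 KO.

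Contacts of the arrays with the other receptor gene groups of their chromosomes were examined last. Groups were taken from the annotation as at least 10 receptor genes with gaps of at most 500 kb, and lay 1.78 to 47.9 Mb from the arrays. On chromosome 2, 2 groups with 83 receptor genes had 97 contacts with the array in WT ESCs where 57.7 were expected (1.68-fold) and 112 in WT MNs where 24.8 were expected (4.52-fold). On chromosome 7, 4 groups with 123 genes had 408 contacts in WT ESCs (1.58-fold) and 634 in WT MNs (1.97-fold). On chromosome 9, the group from Olfr24 to Olfr18, with 49 genes and 17.4 Mb away, had 39 contacts in WT ESCs where 38.2 were expected (1.02-fold, log2 0.03, 95% interval -0.46 to 0.48) and 97 in WT MNs where 14.6 were expected (6.62-fold, log2 2.73, 2.43 to 3.01). As counted, PATZ1 KO gave 1.77-fold, 1.68-fold and 1.03-fold in ESCs and 4.47-fold, 2.02-fold and 6.67-fold in MNs, but a pair is listed only with a contact in both libraries, so the genotypes could hardly differ here.

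The array on chromosome 9 thus met its group at the mean for that distance in ESCs and above it in MNs, and the ESC and MN intervals did not overlap on any of the 3 chromosomes, most narrowly on chromosome 7 (0.52 to 0.80 and 0.86 to 1.09 in log2). How often such intervals part for other stretches at these distances was not computed, so the parting is not read as a trait of receptor genes. These are sums over groups, and on chromosome 7 the groups differed. Olfr693 to Olfr716 went from 1.75-fold in WT ESCs to 1.58-fold in WT MNs, and Olfr522 to Olfr542-ps1 from 1.92-fold to 1.45-fold, while the other groups rose. On chromosome 2 the WT MN value was above each of the 42 tiles of 1 Mb on that chromosome with an expected count of at least 20, which the array to group value of 2.18 in log2 exceeded, and on chromosome 9 above each of 14, whose highest was 0.33. On chromosome 7 it was above 16 of 17. The WT ESC values were also high among such tiles, above 76 of 76 on chromosome 2, 40 of 46 on chromosome 7 and 40 of 44 on chromosome 9, where the median tile was at -0.95. The tiles were taken by expected count and not matched to the groups in distance. In WT MNs the single groups had expected counts of 7.37 and 17.4 on chromosome 2 and 14.6 on chromosome 9, below that floor. Sparse long-distance sums exaggerate an excess, so these ranks are not a like comparison. Single groups ranged from 1.45-fold (Olfr522 to Olfr542-ps1, 5 contacts) to 7.32-fold (Olfr334-ps1 to Olfr368, 54 contacts) in WT MNs. Estimated from the share of pairs listed, the excess was smaller, 1.33-fold, 1.28-fold and 1.03-fold in ESCs and 2.21-fold, 1.52-fold and 2.60-fold in MNs for chromosomes 2, 7 and 9. The order of the states was the same with the coverage correction, at which the WT MN values were 9.67-fold, 3.07-fold and 13.2-fold and the WT ESC values 1.71-fold, 1.17-fold and 1.06-fold. That division raises WT MNs, where the median array bin held 0.721, 0.762 and 0.741 times the chromosome's median. It is thus no separate check of the order. In PATZ1 KO MNs the corrected values were 5.95-fold, 2.26-fold and 8.20-fold, from counts of 111, 659 and 98 next to 112, 634 and 97 in WT. The gap between genotypes arose in the division and is not read as a difference in contact.

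**Figure D4:**
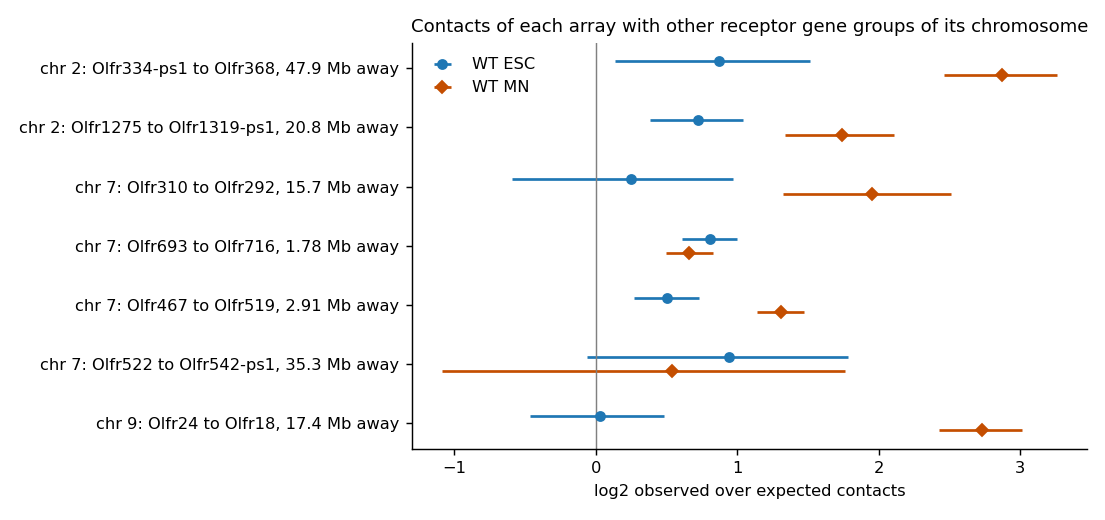
Log2 observed over expected contacts (x axis) between each array and the other receptor gene groups of its chromosome (y axis, first and last gene of the group and its distance from the array) in WT ESCs and WT MNs; bars are 95% counting intervals. WT MN lies above WT ESC without overlap of the intervals for 5 of the 7 groups, and the chromosome 9 group moves from 0.03 to 2.73. No share of such partings was computed for other stretches of the genome. For Olfr693 to Olfr716 and Olfr522 to Olfr542-ps1 on chromosome 7, WT MN lies below WT ESC with overlapping intervals.

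The behaviour within the 3 arrays was compared with 21 other groups of at least 10 receptor genes on all chromosomes. In WT ESCs these groups had a median log2 observed over expected of 0.43 between 200 and 1000 kb, with 15 of 21 above 0, next to 0.37, 0.51 and 0.34 in the arrays. In WT MNs the median was -0.21, with 5 of 21 above 0, next to -0.57, -0.21 and -0.33. Beyond 1 Mb, 5 groups had enough contacts in each WT library, not all of them the same groups: their median was 1.54 in WT ESCs, with 5 above 0, and 0.49 in WT MNs, with 3 above 0. In PATZ1 KO ESCs 6 groups had enough, with a median of 1.19, 5 above 0 and the lowest at -0.93, and in PATZ1 KO MNs 5 groups, with a median of 0.59 and 3 above 0. A floor on contacts drops groups poor in them, so nothing is read from these counts above 0 or from medians of unlike sets. Olfr722 to Olfr750, the group at -0.93, had no value in WT ESCs, and Olfr467 to Olfr519, at 2.26 in WT ESCs, had none in WT MNs. The 2 lowest groups in WT ESCs, named here after their values were seen, were Olfr30 to Olfr311 on chromosome 11 at -0.85 and Olfr1358 to Olfr57 on chromosome 10 at -0.61.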

How the data were processed

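Micro-C libraries were prepared by the authors with the Dovetail kit from 1 WT and 1 PATZ1 KO sample of each cell state, and their contact matrices were made by Dovetail's service. mm10 is the genome build in the submitters' processing notes, and the aligner version is not given in the sources used here. The authors deposited raw contact counts per pair of 8 kb bins, listed where both libraries of a state hold at least 1 contact, and the adjusted interaction frequency, a signal normalized jointly for both libraries by HiCcompare, which served as an alternative. Columns with the authors' differences, Z scores and p-values were not used. All 20 chromosomes fitted GRCm38 by length. Genes were taken from GENCODE's mouse annotation, receptor genes by their Olfr symbols, and sequence from RefSeq's GRCm38.

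Computed here with Python 3.11.15, numpy 2.4.6 and scipy 1.17.1: bins were used where coverage reached 0.25 of the chromosome's median in all 4 libraries; expected contact was the mean over all pairs of used bins at a distance, unlisted pairs counting 0; intervals were exact Poisson or exact binomial at 95%. Boundaries were minima of prominence 0.2 within 200 kb. Named genes were those at boundary sites, the first and last receptor gene and the other coding genes of the windows; exceptions are marked in the text. The arrays, gene lists and distance classes were chosen with earlier results of these data known, and the 64 kb joining of sites after their values were seen. Alternatives were other expected values, coverage correction, adjusted frequencies, trimmed windows, shared pairs, other squares and thresholds and, added after seeing the data, the GC correction, the estimate from the share listed and the strict consensus. The calculations were tested on simulated data. Windows elsewhere were used where 70% of bins were covered.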

Additional observations from a re-analysis of the deposited data

Results flagged for a closer look

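The log2 PATZ1 KO over WT contacts of the 3 arrays, summed over all distances, had opposite signs in the 2 cell states: -0.13 in ESCs and 0.36 in MNs on chromosome 2, -0.031 and 0.20 on chromosome 7, and -0.11 and 0.31 on chromosome 9. The chromosome 7 value in ESCs was within 0.1 of 0, where no direction was called. Beyond 1 Mb both states were above 0, at 0.061, 0.14 and 0.041 in ESCs and 0.094, 0.063 and 0.079 in MNs. The interval included 0 on chromosome 9 in ESCs (-0.047 to 0.13) and on chromosomes 7 (-0.011 to 0.14) and 9 (-0.0085 to 0.17) in MNs. The difference between states was not tested, since each group had 1 library. Set against pairs of the same GC content and distance the MN values were 0.016, 0.026 and 0.0044 and the ESC values -0.065, -0.012 and -0.056, with no direction called in either state.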

How the results depend on the processing

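No paired analysis was possible because each group has 1 library; for the same reason no replicate could be left out. Values are for chromosomes 2, 7 and 9 in turn unless named otherwise, and the cause of each change was not tested. Beyond 1 Mb the mean of the 4 libraries (0.80, 1.56 and 0.78) was above 0 under all settings run: 0.74, 1.496 and 0.73 over all bins, 0.99, 1.78 and 0.89 with the stricter coverage minimum, 1.14, 1.63 and 1.10 corrected for coverage, 0.59, 2.32 and 0.48 over pairs listed in both states, 0.51, 0.86 and 0.51 from the share of pairs listed, and 1.61 on chromosome 7 trimmed to the receptor genes.

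Under 1 Mb, correction for coverage turned WT MNs to 0.50, 0.32 and 0.48 (8 to 40 kb), 0.38, 0.32 and 0.41 (40 to 200 kb) and 0.50, 0.68 and 0.65 (200 to 1000 kb), and the right edge of chromosome 7 to 0.33. It turned WT ESCs to -0.26, -0.24 and -0.11 (8 to 40 kb) and -0.29, -0.21 and -0.16 (40 to 200 kb), and PATZ1 KO ESCs on chromosome 7 to -0.28 and -0.13 in these classes. PATZ1 KO turned in MNs on chromosomes 7 and 9 to 0.0018 and 0.039 (40 to 200 kb) and 0.20 and 0.089 (200 to 1000 kb). Over pairs listed in both states, WT ESCs between 40 and 200 kb turned to -0.054 and -0.052 on chromosomes 2 and 9. Between 200 and 1000 kb, that setting turned ESCs to -0.087 (WT) and -0.16 (PATZ1 KO) on chromosome 2 and -0.019 (PATZ1 KO) on chromosome 9, and MNs to 0.072 (PATZ1 KO) on chromosome 7. From the share listed, MNs between 200 and 1000 kb turned to 0.019 on chromosome 7 and 0.0035 on chromosome 9, 1 value for both genotypes. Other settings turned values near 0 as well. For instance, the stricter coverage minimum turned PATZ1 KO ESCs on chromosome 2 to 0.081 (8 to 40 kb) and 0.11 (40 to 200 kb). Over all bins, PATZ1 KO MNs on chromosome 2 turned to -0.0019 (8 to 40 kb).

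MN minus ESC turned to 0.39, 0.34 and 0.39 in WT with the coverage correction, and was -0.34, -0.21 and -0.32 in PATZ1 KO. Over pairs listed in both states it was -0.45, -0.40 and -0.34 in WT and -0.17, -0.20 and -0.050 in PATZ1 KO. Scaled to library totals it was -0.97 and -0.64 in WT on chromosomes 2 and 9, and -0.75, -0.72 and -0.48 in PATZ1 KO. From the share listed, which gives 1 value per state for both genotypes, it was -0.49, -0.38 and -0.36.

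PATZ1 KO over WT kept its sign under all settings run, but not always a called direction. In ESCs on chromosomes 2 and 9 it was -0.096 and -0.088 scaled to the chromosome, -0.098 and -0.087 against the same distance, and -0.10 and -0.088 with adjusted frequencies. In MNs these settings gave 0.39, 0.32 and 0.40, then 0.39, 0.31 and 0.40, then 0.39, 0.30 and 0.39, and trimming gave 0.37 on chromosome 2. Against pairs of the same GC content and distance it was -0.065, -0.012 and -0.056 in ESCs and 0.016, 0.026 and 0.0044 in MNs. All of these were within 0.1 of 0, where no direction was called, and so was the uncorrected chromosome 7 value in ESCs (-0.031).

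In library order, boundaries in the 3 arrays numbered 17, 15, 20 and 19, against 35, 33, 38 and 37 with squares of 120 kb and 11, 9, 8 and 9 at a prominence of 0.4; squares of 500 kb gave 11 (WT ESC), 8 (WT MN) and 9 (PATZ1 KO MN). The mean SD of the score was 0.31 (chromosome 2) and 0.29 (chromosome 9) with 120 kb, 0.42 (chromosome 2) and 0.37 (chromosome 7) with 500 kb, and 0.41 (chromosome 7) and 0.26 (chromosome 9) corrected for coverage. With at least 20 contacts, pairs past 2-fold numbered 9 higher and 48 lower of 2436 in ESCs (0.369% and 1.97%, genome 1.03% and 0.870%) and 131 and 3 of 1366 in MNs (9.59% and 0.220%, genome 3.74% and 1.65%). With at least 10 contacts, pairs past 1.5-fold numbered 420 and 1051 of 5643 in ESCs (7.44% and 18.6%, genome 11.3% and 13.8%) and 1187 and 92 of 3071 in MNs (38.7% and 3.00%, genome 16.6% and 16.2%).

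Contacts with other receptor gene groups, in log2, became 0.41 (ESC) and 1.14 (MN) on chromosome 2, 0.36 and 0.60 on chromosome 7 and 1.38 (MN) on chromosome 9 from the share listed. Corrected for coverage they were 3.27 (MN) on chromosome 2, 0.22 (ESC) and 1.62 (MN) on chromosome 7 and 3.72 (MN) on chromosome 9. Depth limits all values beyond 1 Mb, where most possible pairs are unlisted.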
